A study of Mus musculus with 6 samples.

Results

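Glucose breakdown and the response to low oxygen were followed through 35 genes of mouse P19 cells: 21 genes of glucose uptake, glycolysis and pyruvate use, and 14 genes of the hypoxia-inducible factor (HIF) and of targets it is known for. The members were listed by name, and their probes were found by the gene symbol of the RefSeq accession that the array files give for each probe. All 35 had a probe well above background on all 6 arrays, so no member was lost to the filter on dim probes. They are 35 of the 13380 genes tested, and 51 probes of the array belong to them.

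P19 is a mouse embryonal carcinoma line that turns to neural cells when it is aggregated with retinoic acid. The study set a line expressing AICD, the intracellular domain cut from the amyloid precursor protein APP, against a line with the empty pCDNA vector, and asked how AICD changes expression along neural differentiation. Each line gave RNA in 3 states: undifferentiated, after 4 days of aggregation in medium with all-trans-retinoic acid, and after 2 further days on culture dishes or coated disks (the differentiated state). The measurement was a one-colour Agilent expression array, with 1 array for each line and state and no replicate of any of the 6. The parent line, the medium and the retinoic acid schedule were common to both lines. The labels describe the lines as expressing AICD or carrying vector and do not say whether each is a single clone, nor which promoter drives AICD.

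On each array 62.0% to 65.9% of the non-control spots were well above background, 0 were saturated, and repeat spots of a probe had a standard deviation between 0.0697 and 0.0837 on the log2 scale. Signals are log2 processed signals after subtraction of the 75th percentile of the same array, so 0 is a spot at that percentile and a difference of 1 is 2-fold. The undifferentiated arrays lay on one slide and the other 4 arrays on another. Undifferentiated against later states therefore cannot be told apart from slide, while the replating step and the line difference can be read within a slide. Of 5 pluripotency markers tested, 4 fell and 0 rose from the undifferentiated to the aggregated state, among them Pou5f1 (6.37 and 6.48 undifferentiated, vector then AICD). Of 7 neuron markers, 6 rose and 0 fell at that step, with Dcx going from -4.15 and -4.73 to 2.66 and 3.35. Of the blood and endothelium markers 1 of 5 was tested. RNA came from whole cultures, in which fewer cells of a type and less RNA per cell cannot be told apart.

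Glycolysis turns glucose into pyruvate in a chain of cytosolic enzymes, and lactate dehydrogenase can then pass pyruvate on to lactate, which leaves the cell. Many steps have several isozymes, and neurons are known to use particular ones such as Eno2. HIF is a pair of transcription factor subunits whose alpha subunit is hydroxylated by oxygen-dependent enzymes and destroyed; in low oxygen it escapes this, binds short motifs containing ACGTG or GCGTG and raises genes of glucose uptake, glycolysis, mitophagy, vessel growth and its own hydroxylases.

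The bases upstream of the start of 4 members are shown to let the reader see such motifs beside the expression values: Ankrd37 and Ddit4, which rose in the aggregates, and Pgk1 and Slc16a3, which passed no test there. Each is the 250 bases before the RefSeq start on the strand of the gene, 5′ to 3′, in GRCm38.p6, with every ACGTG or GCGTG on either strand in capitals.
Ankrd37, chr8:45999851-46000100, minus strand: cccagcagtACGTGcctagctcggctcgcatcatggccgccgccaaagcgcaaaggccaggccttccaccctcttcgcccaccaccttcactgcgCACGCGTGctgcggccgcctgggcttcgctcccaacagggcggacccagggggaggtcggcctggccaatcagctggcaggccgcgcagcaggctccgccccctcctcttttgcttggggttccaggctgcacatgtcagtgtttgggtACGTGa
Ddit4, chr10:59951771-59952020, minus strand: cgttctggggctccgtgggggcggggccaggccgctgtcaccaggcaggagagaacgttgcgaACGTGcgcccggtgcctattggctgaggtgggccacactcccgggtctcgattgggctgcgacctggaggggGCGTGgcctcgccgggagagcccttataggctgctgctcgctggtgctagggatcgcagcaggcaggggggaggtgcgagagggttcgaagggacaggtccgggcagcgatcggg
Pgk1, chrX:106186850-106187099, plus strand: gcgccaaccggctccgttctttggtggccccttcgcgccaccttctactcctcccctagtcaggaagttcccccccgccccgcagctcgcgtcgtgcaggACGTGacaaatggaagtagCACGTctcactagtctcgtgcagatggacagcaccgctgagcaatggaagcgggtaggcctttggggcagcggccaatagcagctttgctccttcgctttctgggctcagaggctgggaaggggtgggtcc
Slc16a3, chr11:120948817-120949066, plus strand: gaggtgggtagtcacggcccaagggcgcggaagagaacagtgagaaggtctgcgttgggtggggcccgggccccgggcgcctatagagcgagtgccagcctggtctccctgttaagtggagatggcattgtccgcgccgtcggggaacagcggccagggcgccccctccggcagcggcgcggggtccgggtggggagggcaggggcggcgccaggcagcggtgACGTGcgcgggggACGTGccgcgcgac
The Ankrd37 stretch held 4 matches, of which a pair overlaps in CACGCGTG, and the other stretches held 2 each. RefSeq promoters of 300 bases (250 before to 50 after the start) were found for 32 of the 35 members by symbol; the others are Ndrg1, Bhlhe40 and Slc2a3. With a palindromic CACGTG counted as 2 matches, 29 of 32 members (90.6%) had at least 1 match in any of their promoters, against 46.7% of all 27025 genes in the table. Counted by promoter, 38 of 47 member promoters (80.9%) had a match, against 43.8% of all 32851 promoters. Member promoters were richer in G and C, with a median of 62.3% against 52.7%, and of all promoters with 56.5% to 68.0% G and C (the middle of the member range) 63.0% had a match. Among members that rose in the aggregates 10 of 12 had a match, and among the other members 19 of 20. A match is a string of letters and no measured site.

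Many of the 14 HIF genes rose when the cells were aggregated with retinoic acid, and most of the common glycolytic enzymes were lower in differentiated than in undifferentiated cells. The glycolysis genes also hold HIF targets, such as Pfkfb3, Pdk1 and Hk2, so these groups do not set targets against other genes. Pfkfb3 and Pdk1 rose in the aggregates, and Hk2 passed no test there. In the aggregates 14 of 35 members rose (40%, against 14.3% of all genes tested) and 4 fell (11.4%, against 27.8% of all genes), by limma over both lines (2 arrays per state) at an adjusted p of 0.05. The median member difference was 0.44, where the median of all genes was -0.30. From the undifferentiated to the differentiated state 4 members rose (11.4%, against 20.1% of all genes) and 21 fell (60%, against 41.3%), with a median of -1.51 against -0.44. In the aggregates 8 of the 14 HIF genes rose and 3 fell, with a median of 1.55, and of the 21 glycolysis genes 6 rose and 1 fell, with a median of 0.28. Over the whole course 13 of 21 glycolysis genes fell and 3 rose (median -2.26), and 8 of 14 HIF genes fell and 1 rose (median -0.98).

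**Figure D1:**
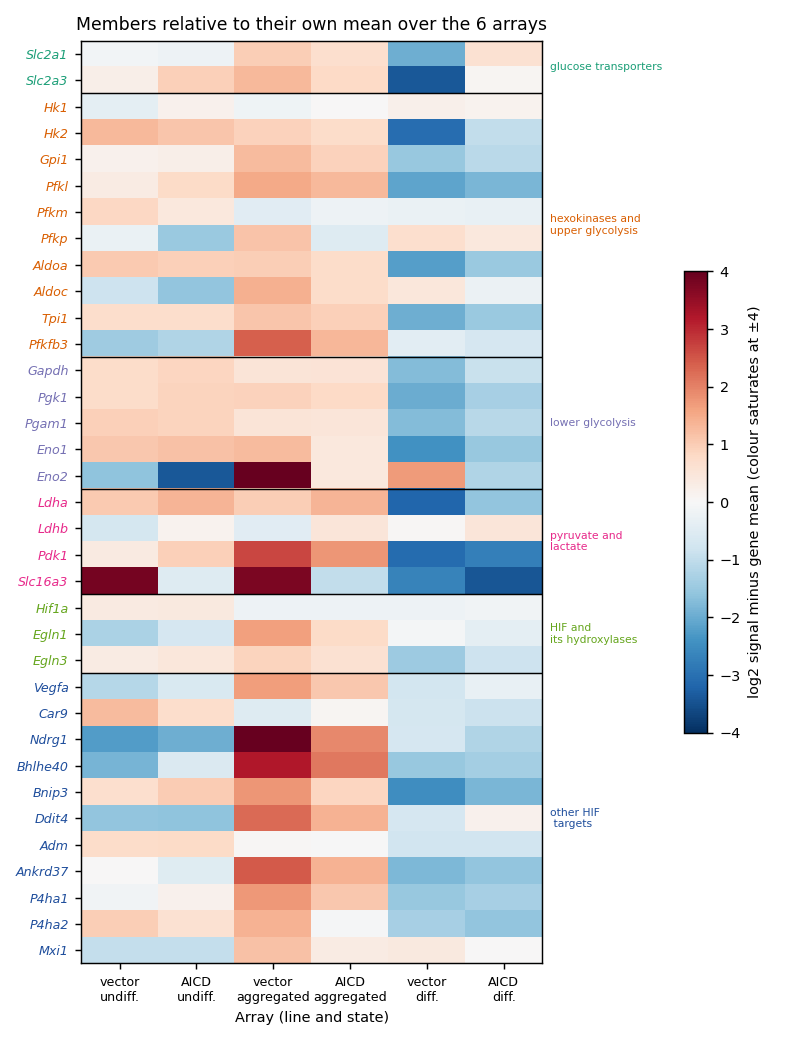
Heat map of the 35 members (rows, grouped and coloured by role) on the 6 arrays (columns, vector and AICD line in each state). Colour is the normalized log2 signal minus the mean of that gene over the 6 arrays, red above and blue below, with colours saturating at 4. Ndrg1, Bhlhe40, Ddit4 and Pfkfb3 are red in the aggregated columns, and Aldoa, Ldha and Bnip3 are blue in the differentiated ones.

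These p-values rest on 2 residual degrees of freedom, and the spread behind them is how the line difference varies from state to state, not a spread between replicate cultures. How many genes passed, members or not, turned on single arrays. Leaving 1 out leaves a state with 1 array, so medians are given for this. In the aggregation step the member median was 0.12 without the vector aggregated array and 1.15 without the AICD one (all genes -0.29 and -0.31). It was 0.54 without the vector undifferentiated array and 0.37 without the AICD one (all genes -0.26 and -0.35). For the whole course, the member median was -1.17 without the vector differentiated array and -1.80 without the AICD one (all genes -0.41 and -0.47). It was -1.51 without the vector undifferentiated array and -1.49 without the AICD one (all genes -0.41 and -0.46). With quantile normalization the median of all genes moved from -0.30 to -0.12 in the aggregation step and from -0.44 to -0.24 over the course, and the share of higher genes among all aggregation calls moved from 33.9% to 44.4%. Member counts were then 13 higher and 1 lower (Adm) in the aggregates. That normalization ended the aggregation calls of Pdk1, Pfkm, Hif1a and Car9 (adjusted p from 0.0532 to 0.103) and the course calls of Gpi1, Pfkm and Hif1a (from 0.0870 to 0.171). Normexp background correction ended those of Adm and Hif1a in the aggregates and of Eno2 over the course (from 0.0531 to 0.0599). Without a filter on dim probes Gpi1, Pfkl, Pdk1 and Car9 in the aggregates and Pfkp over the course no longer passed (from 0.0556 to 0.0720), nor did Pdk1 in the aggregates with the mean of all probes of a gene (0.0501). In every list of values that follows, the vector array comes first and the AICD array after it, and the errors are limma standard errors.

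The glucose transporters passed no test over both lines, and on the differentiated arrays they were higher in the AICD line. Slc2a1, the widespread transporter GLUT1, had signals of 4.94 and 4.87 undifferentiated, 6.05 and 5.73 aggregated, and 3.12 and 5.66 differentiated. Its lowest value was that of the vector differentiated array, and the aggregation difference was 0.99 ± 0.80 (adjusted p = 0.356). Slc2a3, the high-affinity transporter of neurons and embryos, had 4.78 and 5.50 undifferentiated, 5.84 and 5.31 aggregated, and 1.14 and 4.60 differentiated. Here too the vector differentiated array lay far below the other 5; the replating difference was -2.70 ± 1.02 (adjusted p = 0.165) and that over the course -2.26 ± 1.02 (adjusted p = 0.123). In the differentiated state the AICD array stood 2.54 above the vector array for Slc2a1 and 3.46 for Slc2a3, whereas in the undifferentiated state the differences were -0.08 and 0.72.

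At the entry of glycolysis the hexokinases parted. Hk2, the insulin-responsive hexokinase that is also a HIF target, gave 5.12 and 4.91 undifferentiated, 4.72 and 4.54 aggregated, and 0.76 and 2.83 differentiated. The first 4 arrays lay close together and the vector differentiated array was lowest; over the course it fell, -3.22 ± 0.66 (adjusted p = 0.0186). Hk1, the main hexokinase of brain, gave -1.93 and -1.36 undifferentiated, -1.71 and -1.53 aggregated, and -1.36 and -1.39 differentiated. The 6 arrays lay close together, and none of its differences passed. The other Hk1 probes well above background on all 6 arrays gave 0.01 and 0.25 for the aggregation step and 0.43 and 0.67 for the course; a dimmer probe, which did not reach that detection level on the AICD aggregated array, gave -0.48 for the course.

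Gpi1, which turns glucose phosphate into fructose phosphate, gave 6.40 and 6.46 undifferentiated, 7.47 and 7.14 aggregated, and 4.70 and 5.14 differentiated. Both aggregated arrays were above, and both differentiated arrays below, the undifferentiated pair: it rose by 0.88 ± 0.24 (adjusted p = 0.0494) in the aggregates and fell over the course, -1.51 ± 0.24 (adjusted p = 0.0110). The phosphofructokinases, which commit sugar to glycolysis, went different ways. Pfkl, the liver-type subunit, gave 2.85 and 3.28 undifferentiated, 4.04 and 3.82 aggregated, and 0.42 and 0.69 differentiated. It repeated the order of Gpi1, with a rise of 0.87 ± 0.22 (adjusted p = 0.0430) and a fall over the course of -2.51 ± 0.22 (adjusted p = 0.00692).

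Pfkm, the muscle-type subunit, gave 4.15 and 3.72 undifferentiated, 2.84 and 3.09 aggregated, and 3.04 and 3.0 differentiated. Its undifferentiated pair lay above all 4 later arrays, and it fell in the aggregates (-0.97 ± 0.22, adjusted p = 0.0352) and over the course (-0.92 ± 0.22, adjusted p = 0.0273). Pfkp, the platelet-type subunit, gave 0.44 and -0.78 undifferentiated, 1.86 and 0.20 aggregated, and 1.38 and 1.15 differentiated. It was lowest in undifferentiated AICD cells and rose over the course, 1.43 ± 0.39 (adjusted p = 0.0367), but another probe gave -0.40 in place of 1.20 for the aggregation step and 0.56 for the course. That probe, well above background on all 6 arrays, also gave AICD minus vector differences of -0.44, 0.36 and 0.18 in the 3 states, where the probe used gave -1.21, -1.66 and -0.24.

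Pfkfb3 makes the small sugar phosphate that activates phosphofructokinase and is a classic hypoxia target. Its signals were 0.65 and 0.86 undifferentiated, 4.47 and 3.39 aggregated, and 1.66 and 1.40 differentiated. Both aggregated arrays stood well clear of the other 4, with a rise of 3.17 ± 0.36 (adjusted p = 0.0132); another probe gave 3.18, and the remaining one was not well above background on the vector undifferentiated array. The course difference was 0.78 ± 0.36 (adjusted p = 0.127) and, on that other probe, -0.27.

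The aldolases moved in opposite directions over the course. Aldoa, the aldolase of muscle and most dividing cells, gave 8.43 and 8.33 undifferentiated, 8.38 and 8.13 aggregated, and 5.18 and 5.90 differentiated. The first 4 arrays lay close together and the differentiated pair more than 2 units lower; the fall over the course was -2.84 ± 0.30 (adjusted p = 0.00745). Aldoc, the aldolase of brain, gave -0.48 and -1.22 undifferentiated, 1.78 and 1.09 aggregated, and 0.79 and 0.13 differentiated. Its undifferentiated pair was the lowest; it rose by 2.29 ± 0.14 (adjusted p = 0.00848) in the aggregates, the smallest adjusted p of any member at that step, and by 1.30 ± 0.14 (adjusted p = 0.00764) over the course. Tpi1, which interconverts the triose phosphates, gave 6.44 and 6.43 undifferentiated, 6.85 and 6.68 aggregated, and 3.77 and 4.27 differentiated. The aggregation difference of 0.33 ± 0.22 (adjusted p = 0.281) did not pass, and the course gave a fall of -2.41 ± 0.22 (adjusted p = 0.00708).

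In the lower chain 4 of 5 genes fell over the course and Eno2 rose. Gapdh, often used as a reference gene, gave 7.75 and 7.87 undifferentiated, 7.55 and 7.56 aggregated, and 5.28 and 6.14 differentiated. Pgk1, the first enzyme of the chain to make ATP, gave 7.52 and 7.66 undifferentiated, 7.71 and 7.56 aggregated, and 4.78 and 5.44 differentiated. Pgam1, the phosphoglycerate mutase of most tissues, gave 7.68 and 7.61 undifferentiated, 7.23 and 7.22 aggregated, and 4.99 and 5.62 differentiated. All 3 had undifferentiated and aggregated values that overlapped or lay close together, and differentiated values lower on both arrays, the vector array below the AICD array each time. Their falls over the course were -2.10 ± 0.27 (adjusted p = 0.00853) for Gapdh, -2.48 ± 0.25 (adjusted p = 0.00729) for Pgk1 and -2.34 ± 0.24 (adjusted p = 0.00735) for Pgam1. Several genes of this chain, Gapdh, Pgk1, Eno1, Aldoa, Tpi1, Pgam1 and Ldha among them, have many near-identical pseudogene copies; the probe sequences were not used here, so hybridization to copies was not checked.

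The enolases split as the aldolases did. Eno1, the general enolase, gave 3.68 and 3.79 undifferentiated, 3.88 and 3.04 aggregated, and 0.17 and 1.09 differentiated. It fell over the course, -3.10 ± 0.46 (adjusted p = 0.00997), while the aggregation difference of -0.27 ± 0.46 (adjusted p = 0.650) changed sign to 0.06 with quantile normalization. Eno2, the enolase long used as a neuron marker, gave -2.82 and -4.61 undifferentiated, 2.82 and -0.80 aggregated, and 0.49 and -2.42 differentiated. In both lines the aggregated array was highest and the undifferentiated lowest, but each AICD array lay below the vector array of its state. Eno2 rose by 4.73 ± 0.48 (adjusted p = 0.0128) in the aggregates and by 2.75 ± 0.48 (adjusted p = 0.0131) over the course, and another probe gave 4.96 and 2.98.

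**Figure D2:**
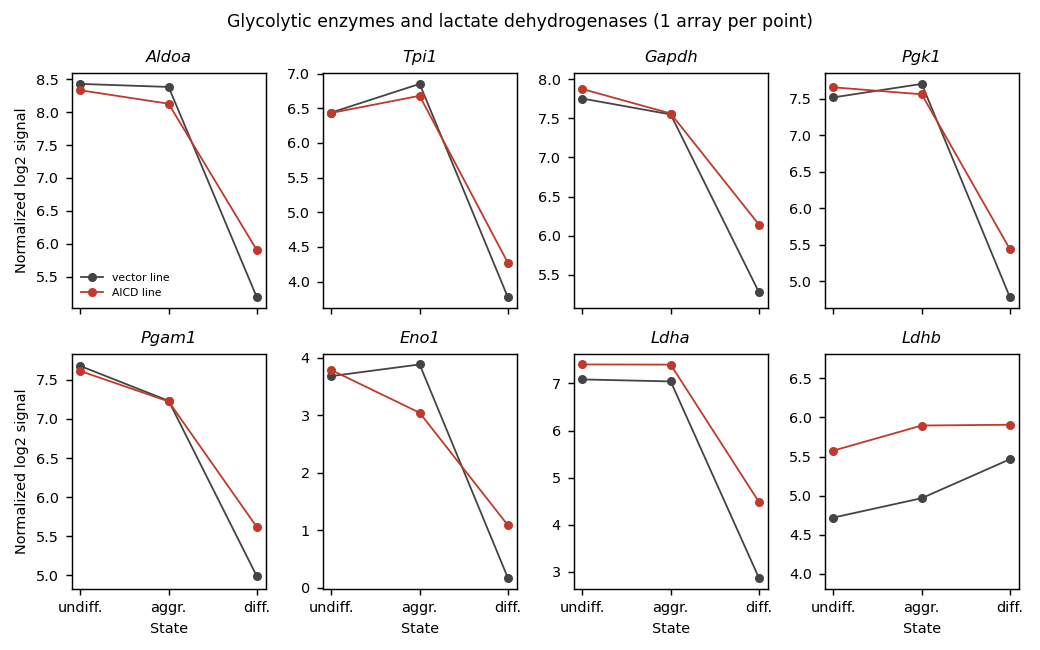
Normalized log2 signal (y axes, each panel with its own range) of 8 enzymes in the undifferentiated, aggregated and differentiated states, 1 array per point, vector line in grey and AICD line in red. In 7 panels the line drops after the aggregated state, from Aldoa (8.38 and 8.13 to 5.18 and 5.90) to Ldha (7.04 and 7.40 to 2.87 and 4.48), with the vector array lower at the end; Ldhb does not drop.

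Around pyruvate, the genes of lactate production and export fell and the oxidative form of lactate dehydrogenase did not. Ldha, the subunit that favours lactate, gave 7.09 and 7.40 undifferentiated, 7.04 and 7.40 aggregated, and 2.87 and 4.48 differentiated. Its first 4 arrays lay close together, and it fell over the course, -3.57 ± 0.39 (adjusted p = 0.00761). Ldhb, the subunit of heart and of neurons, gave 4.72 and 5.58 undifferentiated, 4.97 and 5.90 aggregated, and 5.47 and 5.91 differentiated. The AICD array was above the vector array in every state, and neither its course (0.54 ± 0.19, adjusted p = 0.0735) nor its line difference (0.74 ± 0.16, adjusted p = 0.211) passed.

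Pdk1, a HIF-induced kinase that holds back pyruvate oxidation in mitochondria, had signals of -0.11 and 0.48 undifferentiated, 2.20 and 1.29 aggregated, and -3.56 and -3.21 differentiated. It was highest in both aggregates and more than 4 units lower in both differentiated cultures. The rise of 1.56 ± 0.43 (adjusted p = 0.0498) was close to the threshold, and the fall over the course was -3.57 ± 0.43 (adjusted p = 0.00792); its replating difference, -5.13 ± 0.43 (adjusted p = 0.0671), was the most negative of the 35. Slc16a3, the lactate exporter MCT4, gave 3.95 and -0.39 undifferentiated, 3.89 and -0.84 aggregated, and -2.53 and -3.28 differentiated. The AICD array was far below the vector array in the undifferentiated and aggregated states (-4.34 and -4.73), and both were low in the differentiated state (-0.75). Over both lines it fell over the course, -4.69 ± 1.1 (adjusted p = 0.0254), with -6.48 in the vector and -2.89 in the AICD line.

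The messenger RNA of the factor itself moved little. Hif1a, the oxygen-regulated alpha subunit, gave 2.54 and 2.55 undifferentiated, 1.97 and 1.98 aggregated, and 1.97 and 2.04 differentiated. Its undifferentiated pair lay above the other 4 arrays, the lines differed by 0.07 or less in every state, and it fell in the aggregates (-0.58 ± 0.14, adjusted p = 0.0421) and over the course (-0.54 ± 0.14, adjusted p = 0.0351). Arrays of RNA do not show the protein, through which Hif1a is mainly regulated.

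Of its hydroxylases, Egln1 (PHD2), which marks the alpha subunit for destruction in normal oxygen, gave -0.32 and 0.26 undifferentiated, 2.60 and 1.71 aggregated, and 0.85 and 0.55 differentiated. Both aggregated arrays exceeded the rest, with a rise of 2.18 ± 0.39 (adjusted p = 0.0231), and another probe gave 2.46. Egln3 (PHD3), which HIF itself induces, gave -0.68 and -0.55 undifferentiated, -0.13 and -0.40 aggregated, and -2.47 and -1.82 differentiated. It showed no such peak (0.35 ± 0.27, adjusted p = 0.332), and it fell over the course, -1.53 ± 0.27 (adjusted p = 0.0133).

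Of the 11 other HIF targets 7 rose in the aggregates, and Ndrg1 rose most of all members. Ndrg1, a stress-induced gene of differentiation, gave -1.93 and -1.64 undifferentiated, 4.49 and 2.24 aggregated, and -0.36 and -0.89 differentiated. Both aggregated values stood above the other 4, the AICD minus vector difference there was -2.25, and the rise was 5.15 ± 0.66 (adjusted p = 0.0149). Bhlhe40, a transcriptional repressor of the clock and the hypoxia response, gave -3.47 and -2.19 undifferentiated, 1.58 and 0.51 aggregated, and -3.13 and -2.97 differentiated. It too was clear of the rest in both aggregates (3.88 ± 0.60, adjusted p = 0.0184), and it was back near its starting level after replating (course -0.22 ± 0.60, adjusted p = 0.768).

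Ddit4, the stress gene REDD1 that restrains mTORC1, gave 3.27 and 3.27 undifferentiated, 7.14 and 6.27 aggregated, and 4.20 and 5.05 differentiated. It rose by 3.43 ± 0.45 (adjusted p = 0.0153), and both differentiated arrays stayed above the undifferentiated pair without passing the test (1.35 ± 0.45, adjusted p = 0.0609). Vegfa, the vessel growth factor, gave 0.56 and 1.07 undifferentiated, 3.37 and 2.78 aggregated, and 0.96 and 1.40 differentiated. The 2 aggregated arrays were the highest, with a rise of 2.26 ± 0.34 (adjusted p = 0.0176) and between 1.40 and 2.56 on its other 3 probes; the course difference of 0.37 ± 0.34 (adjusted p = 0.388) was -0.28, -0.02 and -1.22 on those probes.

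Ankrd37, an ankyrin-repeat gene whose upstream bases are printed above, had 0.07 and -0.40 undifferentiated, 2.53 and 1.46 aggregated, and -1.74 and -1.50 differentiated. It peaked in the aggregates (2.16 ± 0.35, adjusted p = 0.0199) and ended below its start (-1.46 ± 0.35, adjusted p = 0.0279). P4ha1, a catalytic subunit of the collagen prolyl hydroxylase, gave 0.44 and 0.77 undifferentiated, 2.32 and 1.67 aggregated, and -0.92 and -0.73 differentiated and followed the same order, 1.39 ± 0.30 (adjusted p = 0.0317) in the aggregates and -1.43 ± 0.30 (adjusted p = 0.0196) over the course. P4ha2, the other catalytic subunit, gave 2.08 and 1.69 undifferentiated, 2.47 and 1.03 aggregated, and -0.24 and -0.50 differentiated. It showed no shared rise (-0.13 ± 0.35, adjusted p = 0.767), with 0.39 in the vector and -0.66 in the AICD line, and it fell over the course (-2.25 ± 0.35, adjusted p = 0.0107).

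Mxi1, an antagonist of Myc, gave 0.64 and 0.66 undifferentiated, 2.77 and 1.93 aggregated, and 2.00 and 1.61 differentiated. Its undifferentiated pair was the lowest, and it rose in the aggregates (1.70 ± 0.26, adjusted p = 0.0178) and over the course (1.15 ± 0.26, adjusted p = 0.0223). Bnip3, which sends mitochondria to autophagy, gave 3.98 and 4.32 undifferentiated, 5.06 and 4.16 aggregated, and 0.83 and 1.49 differentiated. The vector aggregated array was its highest, the aggregation difference did not pass (0.47 ± 0.43, adjusted p = 0.417), and it fell over the course (-2.98 ± 0.43, adjusted p = 0.00979).

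Car9 and Adm, both known as sensitive markers of hypoxia, went the other way. Car9, a membrane carbonic anhydrase that exports acid, gave -1.47 and -2.04 undifferentiated, -3.26 and -2.66 aggregated, and -3.44 and -3.59 differentiated. Its undifferentiated pair was the highest, and it fell in the aggregates (-1.21 ± 0.33, adjusted p = 0.0488) and over the course (-1.76 ± 0.33, adjusted p = 0.0146). Adm, the vasodilator peptide adrenomedullin, gave -3.84 and -3.81 undifferentiated, -4.52 and -4.57 aggregated, and -5.35 and -5.32 differentiated, stepping down at each state with the lines close together. It fell in the aggregates (-0.72 ± 0.15, adjusted p = 0.0283) and over the course (-1.51 ± 0.15, adjusted p = 0.00728). Adm was dim: the lowest signal of any probe well above background was -6.01 and -5.92 on the differentiated arrays. With normexp correction Adm had -2.56 and -2.67 undifferentiated and -3.42 and -3.35 differentiated, a smaller fall.

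**Figure D3:**
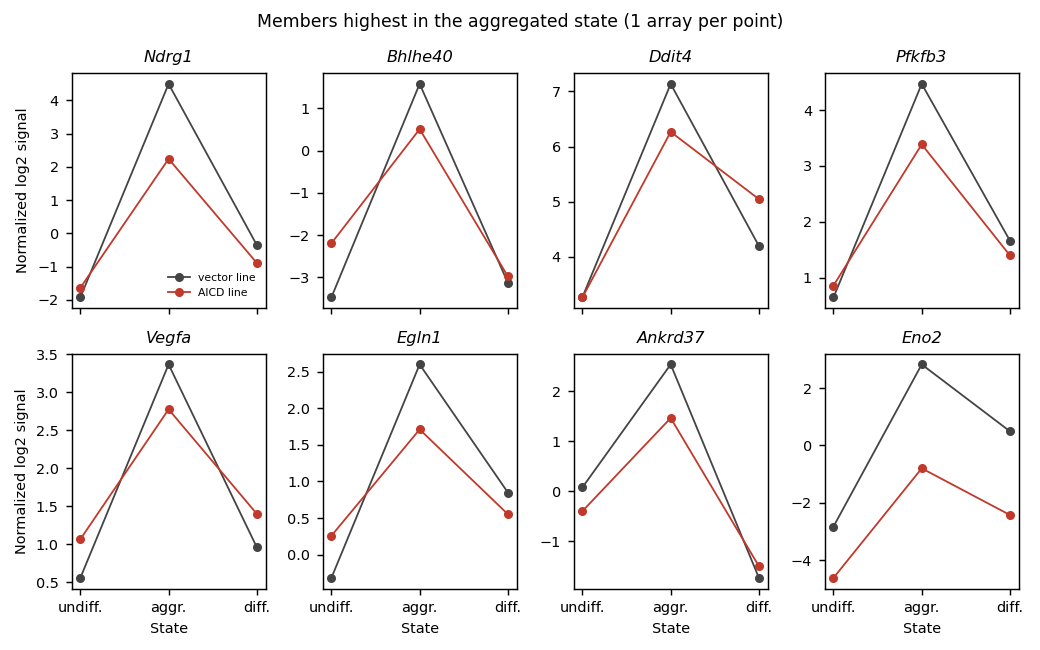
Normalized log2 signal (y axes, own range per panel) of 8 members that rose in the aggregates, by state, 1 array per point, vector line in grey and AICD line in red. Each panel peaks at the aggregated state in both lines, and the AICD point lies below the vector point there, for Ndrg1 at 2.24 against 4.49.

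After replating, 30 of 35 members had a negative difference (85.7%, against 55.6% of all genes), with a median of -2.12 where all genes had -0.08. By limma 0 members passed in either direction, as did 0% of all genes tested, the smallest adjusted p of any gene being 0.0536; at an unadjusted p under 0.05, 26 members were lower and 0 higher, against 2376 lower and 1971 higher of 13380 genes. With normexp background correction 22 members passed as lower, against 754 of 13380 genes. When only genes above background on all 6 arrays were fitted, 20 members did, against 365 of 11502 genes. The count of members thus turned on the setting. In the vector line 26 of 35 members were at least 2-fold lower after replating (against 11.4% of genes) and in the AICD line 24 (against 4.48%), and 0 were at least 2-fold higher in the vector line (11.1% of genes) or the AICD line (6.69%). The medians were -2.81 in the vector and -1.61 in the AICD line. The members without a drop were Hk1, Pfkm, Pfkp, Ldhb and Hif1a, whose differences lay between 0.03 and 0.25. Both arrays of each state in this step lie on the same slide; within that slide alone 0 genes passed and the smallest adjusted p was 0.0600. All 6 proliferation genes had negative differences at this step as well, with a median of -1.0 and none called, and the mitochondrial genes had a median of -0.19; the part of cell division in the members' drop was not tested.

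**Figure D4:**
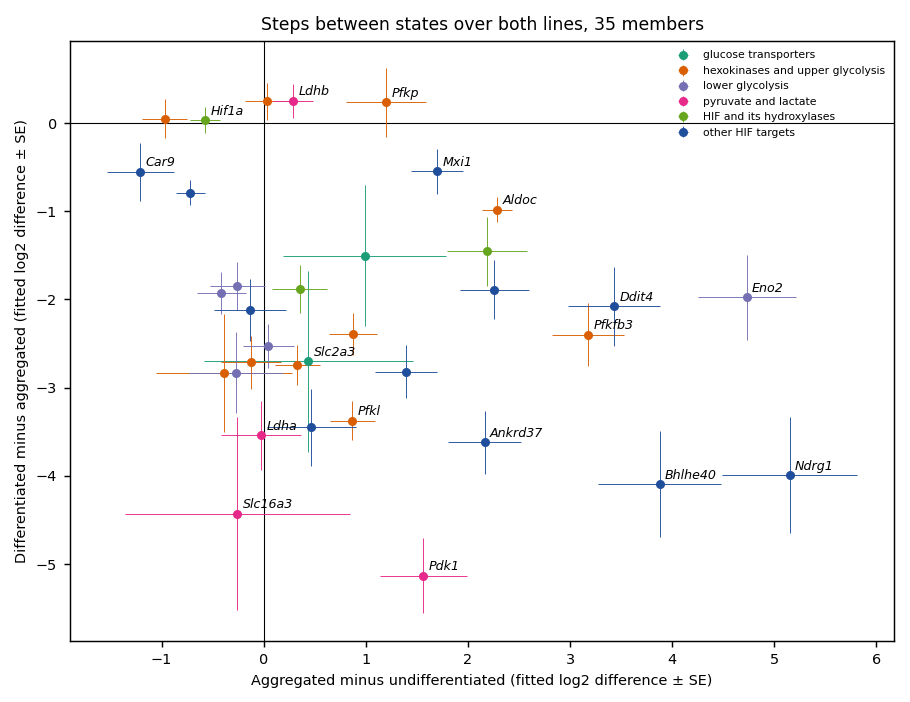
Fitted log2 difference of each member between undifferentiated and aggregated (x axis) and between aggregated and differentiated (y axis) over both lines, points coloured by role, bars ± 1 limma standard error. Most points lie below 0 on the y axis; Ndrg1, Bhlhe40, Ddit4, Eno2 and Pfkfb3 lie farthest right, and the common glycolytic enzymes gather near 0 on the x axis and between -1.84 and -3.54 on the y axis.

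The comparison of the lines sets the AICD line against the vector line. In it, AICD expression cannot be told apart from any other difference between these lines. Over the 3 states 0 of 35 members were called higher or lower by limma (against 0.209% and 0.142% of all genes), and at an unadjusted p under 0.05 Ldhb was higher and Aldoc, Pfkp, Eno2 and Slc16a3 lower in the AICD line, against 807 and 867 of all genes. The median member difference was 0.03, and its sign depended on the setting (-0.02 with normexp correction). The Pfkp difference of -1.04 was 0.03 on its other probe. The AICD minus vector difference of Eno2 was -1.79 before aggregation, -3.62 in the aggregates and -2.91 after replating (-2.77 ± 0.39, adjusted p = 0.115). In the fit to the 4 aggregated and differentiated arrays, which share a slide, Eno2 was the 1 member called (-3.27 ± 0.25, adjusted p = 0.0490). Aldoc was steady across states, at -0.74, -0.69 and -0.66 (-0.70 ± 0.12, adjusted p = 0.150). Slc16a3 had -3.27 ± 0.90 (adjusted p = 0.299), its gap closing from -4.73 in the aggregates to -0.75 in the differentiated state.

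State by state, with 1 array a line and hence no test, the direction was not the same. In the undifferentiated state 1 member was at least 2-fold higher in AICD cells (Bhlhe40; 4.21% of genes were) and 3 lower (Pfkp, Eno2 and Slc16a3; 4.11% of genes). Of these, Bhlhe40 (0.56) and Eno2 (-0.83) were under 2-fold with normexp correction, and Pfkp (-0.83) with the mean of its probes. In the aggregated state 0 members were at least 2-fold higher (4.19% of genes) and 8 lower (22.9%, against 3.14% of genes): Pfkp, Pfkfb3, Eno2, Slc16a3, Ndrg1, Bhlhe40, Ankrd37 and P4ha2. With the mean of its probes Pfkp was at -0.65 there. In that state 28 of 35 members were lower in AICD cells by any amount (80%, against 47% of genes), with a median of -0.53 against 0.02, and among the HIF genes 12 of 14 with a median of -0.85. In the differentiated state 4 members were at least 2-fold higher (11.4%, against 4.6% of genes), namely Slc2a1, Slc2a3, Hk2 and Ldha, and 1 lower, Eno2 (3.94% of genes), and 23 of 35 were higher by any amount (65.7%, against 51.8% of genes), with a median of 0.27 against 0.02. The steps of each line show the same values another way: 18 members were at least 2-fold higher in vector aggregates than in undifferentiated vector cells (11.9% of genes) and 10 in AICD aggregates (10.8%), and the member medians of that step were 1.06 and 0.25. In vector aggregates 2 were at least 2-fold lower (22% of genes) and in AICD aggregates 0 (17.2%). Over the course 22 members were at least 2-fold lower in the vector line (33.3% of genes) and 6 higher (17.4%), and in the AICD line 19 were lower (24.6%) and 4 higher (13.2%).

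**Figure D5:**
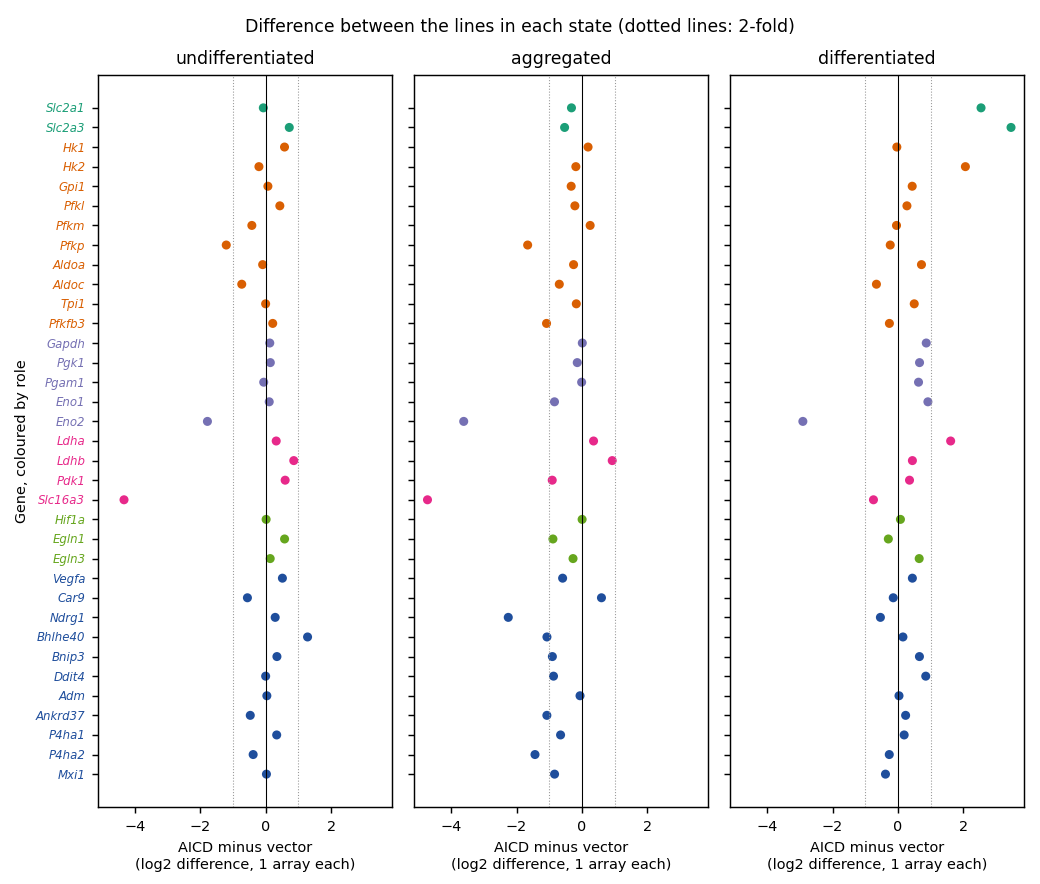
AICD minus vector log2 difference of each member (rows, coloured by role) in the undifferentiated, aggregated and differentiated state, 1 array per line in each; dotted lines mark 2-fold. Most points of the middle panel lie left of 0, down to -4.73 for Slc16a3, and in the right panel Slc2a3 (3.46), Slc2a1 (2.54) and Hk2 (2.06) lie farthest right.

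Cell type markers also differed between the lines in these states. All 6 mesenchyme markers (Col1a1, Col1a2, Col3a1, Dcn, Pdgfrb and Thy1) were lower on the AICD differentiated array, their summed signal relative to the 75th percentile being 29.8 on the vector and 0.517 on the AICD array; in the aggregates it was 6.02 and 1.17, and before aggregation 2.08 and 1.74. On the AICD differentiated array 3 of these 6 were well above background, and on the vector array all 6. The summed signal of the 5 pluripotency markers was 4.67 on the vector and 17.2 on the AICD differentiated array, 10.8 and 17.0 in the aggregates, and 127 and 118 at the start. Neuron markers summed to 183 and 138 in the differentiated state and to 48.1 and 73.2 in the aggregates, and proliferation genes to 53.8 and 68.9 and to 111 and 111. The part of these differences in the members' values was not tested.

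Other genes of these pathways give the setting. Of 24 further glycolysis genes tested, 4 rose and 7 fell in the aggregates (median -0.31), near the 14.3% and 27.8% of all genes (median -0.30), and 7 rose and 13 fell over the course (median -0.89), against 20.1% and 41.3% of all genes (median -0.44). Hk3, a hexokinase of blood cells, had -5.35 and -5.24 undifferentiated, -0.37 and -1.73 aggregated, and -5.19 and -5.56 differentiated and rose by 4.25 ± 0.40 (adjusted p = 0.0120) in the aggregates. Gapdhs, the sperm form of Gapdh, fell in the aggregates (-3.12 ± 0.19, adjusted p = 0.00799). Pkm, the pyruvate kinase that ends the chain in most cells, was named after its values were seen; it had 5.80 and 5.87 undifferentiated, 5.72 and 5.59 aggregated, and 3.55 and 4.03 differentiated and fell over the course (-2.05 ± 0.21, adjusted p = 0.00736), as Aldoa, Tpi1, Gapdh, Pgk1, Pgam1, Eno1 and Ldha did. Pfkfb4, a relative of Pfkfb3, had a line difference of -1.59 ± 0.13 (adjusted p = 0.0552), short of the threshold. After replating 0 of the 24 were called, and Hk3 (-4.33) and Pgm1 (-3.13) had the most negative differences. Within the vector line Slc16a7, a monocarboxylate carrier, was 2.03 higher in the differentiated than in the aggregated state. In the AICD line it was not well above background in either of these states.

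Of 27 further genes of the HIF pathway, 8 rose and 7 fell in the aggregates (median 0.22), against 14.3% and 27.8% of all genes (median -0.30). Over the course 3 rose and 15 fell (median -1.01), against 20.1% and 41.3% of all genes (median -0.44). Stc1, a hormone gene induced by hypoxia, rose by 2.44 ± 0.33 (adjusted p = 0.0158) in the aggregates, and Edn1 and Flt1, genes of vessel signalling, fell (-4.22 ± 0.71, adjusted p = 0.0208 and -2.99 ± 0.61, adjusted p = 0.0290). Pdgfb was below the detection level of both aggregated arrays, where it was at least 2.37-fold (vector) and 7.68-fold (AICD) lower. After replating 0 of 27 were called and 23 were negative, among them Fam162a (-2.88) and Ero1a (-2.26). For Stc1 the vector line had -2.07, and AICD cells, in which it was not well above background after replating, were at least 6.26-fold lower. In the aggregates 21 of the 27 were lower in AICD cells by any amount, with a median of -0.30, and 0 were called between the lines over the states. Among those with a wide line difference, Flt1 had -1.42 over the states. Edn1 had 3.07 undifferentiated and 1.05 aggregated, and was at least 5.85-fold higher in AICD cells after replating, where the vector array was not well above background. Stc1 had -1.07 and -1.70 and was at least 4.84-fold lower there, the AICD array being the one not well above background.

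The mitochondrial genes of pyruvate oxidation, the citric acid cycle and respiration had a smaller median fall over the course than the members (-1.51). Of 23 tested, 1 rose and 6 fell in the aggregates (median -0.41), against 14.3% and 27.8% of all genes (median -0.30). Over the course 1 rose and 14 fell (median -0.60), against 20.1% and 41.3% of all genes (median -0.44). Mpc1, which carries pyruvate into mitochondria, was the one that rose (1.30 ± 0.31, adjusted p = 0.0390 in the aggregates), while Idh3a of the citric acid cycle fell (-1.57 ± 0.20, adjusted p = 0.0149), as did Cycs, cytochrome c (-1.09 ± 0.20, adjusted p = 0.0241). After replating, and between the lines over the states, 0 of the 23 were called.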

How the data were processed

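Total RNA of 6 samples was labelled with Cy3 and read on 6 one-colour Agilent arrays. Per the file headers, the authors' scanner output came from Agilent Feature Extraction 10.1.1.1; the deposited processed signal is an intensity, background-subtracted and detrended on each array and not scaled across arrays. The authors also deposited a score per probe. Taken as a log2 signal centred on the 75th percentile and on the median of the probe, with negative values written as minus their reciprocal, it was matched within 0.05 for 99.8% to 99.9% of listed values, so its sign cannot be recovered; its array medians were 0.967 to 1.23, and it was not used for tests. The array header names genome build mm9; no coordinates were taken from it.

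Control spots were dropped, repeat spots averaged, and log2 processed signals set relative to the 75th percentile of each array. Of 41174 probes, 24844 had a gene symbol through RefSeq accessions; probes well above background on at least 2 of 6 arrays were kept (28482), and each gene took its brightest probe on average, which left 13380 genes. limma 3.58.1 in R 4.3.3 (parsed by data.table, version 1.17.8) fitted state and line additively to all 6 arrays, two-sided, with Benjamini-Hochberg adjustment over all 13380 genes at 0.05 and 2 residual and 2.05 prior degrees of freedom. Nothing in the labels says that arrays came from separate cultures, so the p-values measure only the spread between these samples, which may be technical. Comparisons of single arrays have no test. A fold written as at least N-fold is the signal on the brighter array over a floor on the dimmer array. That floor is the lowest signal among probes well above background there, or the gene's own signal where that was higher. The number of arrays limits the precision.

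The members and all gene lists were chosen with earlier results of these data known. The rule for named genes gives all members on all arrays and, from each list of other genes, up to 3 with the largest fitted difference per comparison; other names were chosen after their values were seen. Alternatives were normexp background correction (offset 50; on the median spot signal, chosen after seeing the data), quantile normalization, no filter, a filter on all 6 arrays, the mean of all probes of a gene, each array left out in turn, and the 4 arrays of the second slide alone. The fit was tested on simulated data. Motifs were counted on both strands of promoter sequences from RefSeq (GRCm38.p6). A result on 1 gene that the rule names is not reported here.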

Additional observations from a re-analysis of the deposited data

Results flagged for a closer look

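Bhlhe40, the repressor of the clock and hypoxia response, differed between the lines in opposite directions in 2 states. The AICD minus vector difference was 1.28 in the undifferentiated state (-2.19 against -3.47) and -1.07 in the aggregated state (0.51 against 1.58), with 0.15 in the differentiated state. With normexp background correction the undifferentiated difference was 0.56 and the aggregated one -1.02. Each value rests on 1 array per line, and the difference between the states was not tested.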

How the results depend on the processing

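No member call reversed: of the 43 member calls under 11 alternatives (473 in all), 0 turned. Part of these could not turn, because the estimate stayed the same. The filter settings left the members' differences unchanged, as did leaving out an array of a state outside the comparison. The mean of all probes left genes with 1 probe unchanged. Of the 43 calls, 40 passed again with normexp correction and 36 with quantile normalization. Without a filter 38 did, with the filter on all 6 arrays 43, and with the mean of all probes 42. Leaving out each array in turn gave, for the aggregation step, 0 to 11 members higher, 0 to 2 lower, 0 to 1432 of all genes higher and 0 to 2745 lower; for the whole course, 0 to 5 members higher, 7 to 20 lower, 515 to 2268 of all genes higher and 377 to 4412 lower; and for the line difference, 0 to 1 members lower, 0 to 77 of all genes higher and 0 to 57 lower. Members called lower in the aggregates numbered 2 with normexp correction and 1 with quantile normalization, against 4. In the replating step, 22 members and 754 genes were lower and 648 genes higher with normexp correction, and 20 members, 365 and 366 genes with the filter on all 6 arrays, against 0 in the fit used here. The line difference called 47 genes higher with normexp correction, 0 higher and 0 lower with no filter on dim probes, and, within the 4 arrays of 1 slide, 77 higher and 57 lower, of which 1 lower gene was a member, Eno2. Among single arrays, 0 members in place of 1 were at least 2-fold higher in undifferentiated AICD cells with normexp correction, 7 in place of 4 were at least 2-fold higher in AICD cells over the course with quantile normalization, and 1 in place of 2 lower in vector aggregates with it. The cause of these shifts was not tested. Differences that passed no test did change sign: in the aggregates those of Aldoa, Eno1, Gapdh, Hk2, Ldha and P4ha2 with quantile normalization (P4ha2 with normexp too) and of Hk1 and Ldha with the mean of all probes; over the course that of Slc2a1 with quantile normalization (0.14 in place of -0.52) and of Vegfa with normexp (-0.23 in place of 0.37) and the mean of all probes (-0.29); and between the lines those of Adm, Bhlhe40, Bnip3, Car9, Ddit4, Hk1, Pdk1, Pfkm and Vegfa under at least 1 of these settings or within the slide. With normexp the brightest probe of each gene was picked anew, and the signals of Vegfa and Hk1 then followed another probe. Their sign changes with normexp thus came with a change of probe as well as of background correction. Without normexp that Vegfa probe gave -0.28 over the course. The median member line difference lay between -0.16 and 0.27 with 1 array left out. Undifferentiated Eno2 (-0.83 with normexp) and Pfkp (-0.83 with the mean of all probes) were then under 2-fold. The deposited scores were not run as an alternative, since their sign cannot be recovered and 0 of 51 member probes are listed on all 6 arrays. The aggregation and course steps could not be fitted within a slide, because each slide lacks one of their states. No pairing of replicate cultures was possible because each line and state has 1 array, and the groups compared share 1 replicate number only. The additive fit does compare the lines within each state and the states within each line. All members were detected on every array, but differences of some dim ones depended on the background correction. With normexp the undifferentiated line difference of Bhlhe40 was 0.56 in place of 1.28. The aggregation difference of Adm was then -0.46 in place of -0.72.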

Other observations

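The subunits of HIF and their partners, outside the members, also moved; these genes were named after their values were seen. Arnt, the general partner of the alpha subunits, gave 0.92 and 0.50 undifferentiated, -0.72 and -0.32 aggregated, and -0.83 and -0.53 differentiated and fell over the course (-1.40 ± 0.26, adjusted p = 0.0155). Arnt2, the partner form of neural tissue, gave -2.49 and -2.87 undifferentiated, -1.09 and -1.48 aggregated, and -0.26 and -0.90 differentiated and rose (2.10 ± 0.16, adjusted p = 0.00609). In both genes the undifferentiated pair did not overlap the later arrays. Epas1 and Hif3a, other alpha subunits, fell over the course (-1.80 ± 0.35, adjusted p = 0.0166 and -1.56 ± 0.17, adjusted p = 0.00756). Slc16a1, a lactate carrier that works in both directions, gave 3.82 and 3.67 undifferentiated, 2.45 and 2.48 aggregated, and 0.40 and 1.80 differentiated and fell over the course (-2.65 ± 0.45, adjusted p = 0.0122), and Tigar, which lowers the activator of phosphofructokinase, did so too (-2.87 ± 0.29, adjusted p = 0.00735). Pfkfb4, a relative of Pfkfb3, gave -0.31 and -1.86 undifferentiated, 1.26 and -0.22 aggregated, and 2.08 and 0.34 differentiated and rose over the course (2.29 ± 0.16, adjusted p = 0.00537), with the AICD array below the vector array in every state. Between the lines over the 3 states none of these 7 genes passed the test.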
